A study of Mus musculus with 48 samples.

Results

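The Bcl2 family decides whether a T cell keeps its mitochondria intact or dies by the intrinsic pathway of apoptosis. The 9 symbols of the family given here were read from the matrices of all libraries: the pro-survival genes Bcl2, Bcl2l1 and Mcl1, the BH3-only genes Bcl2l11, Bbc3, Pmaip1 and Bid, and the effector genes Bax and Bak1. The members are defined by gene symbol, out of 53345 genes in the matrix, and the set was proposed with earlier results of these data known. Of the 9, 8 had a value in each of the 48 libraries and passed the filter on low counts. Bbc3, which encodes Puma, had an empty cell in all 48 libraries, and nothing about its level is stated here.

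The libraries came from spleens of female C57BL/6 mice aged 8 to 12 weeks. Every mouse, PBS controls included, received 2 intraperitoneal doses of 500 µg of antibody on day -1 and day 0, either an isotype control or a blocking antibody against MHC class II, the molecule through which peptides reach the T cell receptor of CD4 T cells. On day 0 each mouse was given PBS or 25 µg, under the skin, of an Fc-fused human IL-2, which was wild type (WT IL-2), carried the H16R substitution, or was the 3x mutein with 3 substitutions, and spleens were taken on day 4. Tregs were the CD25-bound fraction of a magnetic isolation kit, with 4 libraries in each of 8 groups, and Tcons were the CD25-depleted flow-through of 16 of the same mice, with 2 libraries in each of the 8 groups. A Tcon library is therefore what the CD25 column let pass, not a sorted subset, and CD25, the handle of the selection, is the product of Il2ra. Both Treg libraries called replicates 3a and 3b of WT IL-2 with isotype carried the same mouse code. The study's methods give 4 mice for each group and treat each mouse as its own sample, so they were counted as 2 mice, although the code in the labels does not tell them apart. They differed beyond sampling noise, as repeat preparations of 1 mouse also could.

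Pro-survival members hold the pore-forming effectors Bax and Bak in check on the outer mitochondrial membrane, and BH3-only members bind the pro-survival proteins and free the effectors. Bcl-2 itself, Bcl-xL (the product of Bcl2l1) and Mcl-1 are the guardians of T cells, and Bim, the product of Bcl2l11, is the BH3-only protein best known for killing T cells after cytokine loss. In Tregs the balance of Mcl-1 and Bim is known to set survival, and IL-2 is the cytokine on which these cells depend.

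Bcl2 was lower in each comparison of an IL-2 molecule with PBS in Tregs, and Bcl2l11 was the measured BH3-only member with the largest rise in each, so 250 bases before a start site of both are given. Both come from the RefSeq promoter table (GRCm38.p6), from which 13 start sites of 8 of the 9 members were searched. Pmaip1 was left out of this search, and nothing about its promoter is stated here. Both stretches are written in the direction of transcription, with capitals marking a match to the FOXO motif GTAAACA.
Bcl2, chr1:106714291-106714540, minus strand: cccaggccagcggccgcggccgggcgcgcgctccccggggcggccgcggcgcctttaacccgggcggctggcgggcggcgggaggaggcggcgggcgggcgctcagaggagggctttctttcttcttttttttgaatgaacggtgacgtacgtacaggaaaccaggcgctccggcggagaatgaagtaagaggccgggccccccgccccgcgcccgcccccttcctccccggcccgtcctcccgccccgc
Bcl2l11, chr2:128125788-128126037, plus strand: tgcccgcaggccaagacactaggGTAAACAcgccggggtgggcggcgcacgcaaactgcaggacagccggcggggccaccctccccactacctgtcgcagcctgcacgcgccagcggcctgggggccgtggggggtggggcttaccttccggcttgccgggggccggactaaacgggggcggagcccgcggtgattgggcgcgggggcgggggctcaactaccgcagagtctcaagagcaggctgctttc
The Bcl2 stretch held none of the 4 motifs searched on both strands, which were STAT TTCNNNGAA, FOXO GTAAACA, AP-1 TGACTCA and E-box CACGTG. The Bcl2l11 stretch held 1 FOXO match, whose first base lies at position -227 from the start. Bcl2l11 has a second start site in the table, and the 250 bases before it held none of the motifs. Of the 3 start sites of Bbc3, 1 had a FOXO match at -167, another an E-box at -64 and the third none, and Bax held an E-box at -9. Of all 32851 promoter windows of this length, 7.02% held the STAT motif, 3.17% the FOXO motif, 4.46% the AP-1 motif and 6.02% the E-box. GC made up 74.8% of the Bcl2 stretch and 72.0% of the Bcl2l11 stretch, against a median of 52.4% over all windows. In the GENCODE vM21 annotation of GRCm38, Bcl2 (ENSMUSG00000057329) spans chr1:106538178-106714274 and Bcl2l11 (ENSMUSG00000027381) spans chr2:128126038-128162547.

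Sequencing depth lay between 18.28 and 51.24 M counts in Tregs and between 31.31 and 51.95 M in Tcons, and the isotype PBS Tregs were the shallowest group (18.28 to 34.58 M). Each of the 8 measured members had an expected count of at least 620 in each library. Foxp3, the transcription factor that defines Tregs, and 3 further Treg markers (Il2ra, Ikzf2, Ctla4) summed to 2240 to 4230 counts-per-million (CPM, TMM-scaled) in Tregs and to 281 to 1330 CPM in Tcons. The 3 Treg libraries that stood apart were the following. Isotype PBS replicate 1 and MHC II block WT IL-2 replicate 1 carried B cell transcripts (6 markers, 567.5 and 532.8 CPM, against 24.4 to 131.8 CPM in the other Treg libraries), and the second also carried myeloid transcripts (539.0 CPM). Isotype PBS replicate 4 was the shallowest library and had 9330 empty cells, against at most 7487 in any other. Among Tcons, isotype WT IL-2 replicate 2 stood apart, with the 4 Treg markers at 1330.5 CPM against 280.9 to 645.8 CPM in the other 15 libraries. Without the 3 Treg libraries, 13 of the calls on named genes were lost and 2 gained.

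Set per kilobase of transcript, the order of the family was led by the same members everywhere. Mcl1, the short-lived pro-survival gene, ranked first and Bax, an effector, ranked second in all 48 libraries by the authors' FPKM values (fragments per kilobase, scaled by library). In Tregs Mcl1 lay between 141.2 and 188.2 FPKM (median 158.1) and Bax between 48.2 and 93.3 FPKM (median 76.9). The other 6 members were far lower and closer together. Their Treg medians were 28.4 FPKM for Pmaip1, 27.0 for Bak1, 20.0 for Bcl2l1, 19.8 for Bcl2, 17.8 for Bcl2l11 and 17.2 for Bid, and the range over libraries of each of these genes overlapped that of its neighbours in the order. In Tcons the order differed below the second place: Bcl2 had a median of 23.9 FPKM and Bcl2l1 of only 10.4 FPKM, the lowest of the 8. Mcl1 made up 76.3% to 82.6% of the summed FPKM of the 3 pro-survival genes in the means of the 8 Treg groups and 79.6% to 84.5% in those of the 8 Tcon groups.

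The members differed in how far they moved over the 8 Treg groups. The distance between the highest and the lowest group mean, on the log2 scale, was 1.04 for Bcl2 and 1.01 for Pmaip1, and stood at the 78.9th and 78.0th percentile of the same distance over all genes tested. Bak1 stood at the 79.9th percentile, Bcl2l11 at the 69.9th and Bcl2l1 at the 46.0th. Bax, Bid and Mcl1 were among the steadier genes, at the 33.2nd, 29.5th and 12.6th percentile. These distances are in CPM, where Mcl1 moved least of the members. In FPKM its group means ran from 147.3 to 181.4 and those of Bid from 15.4 to 19.0, about the same ratio.

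**Figure D1:**
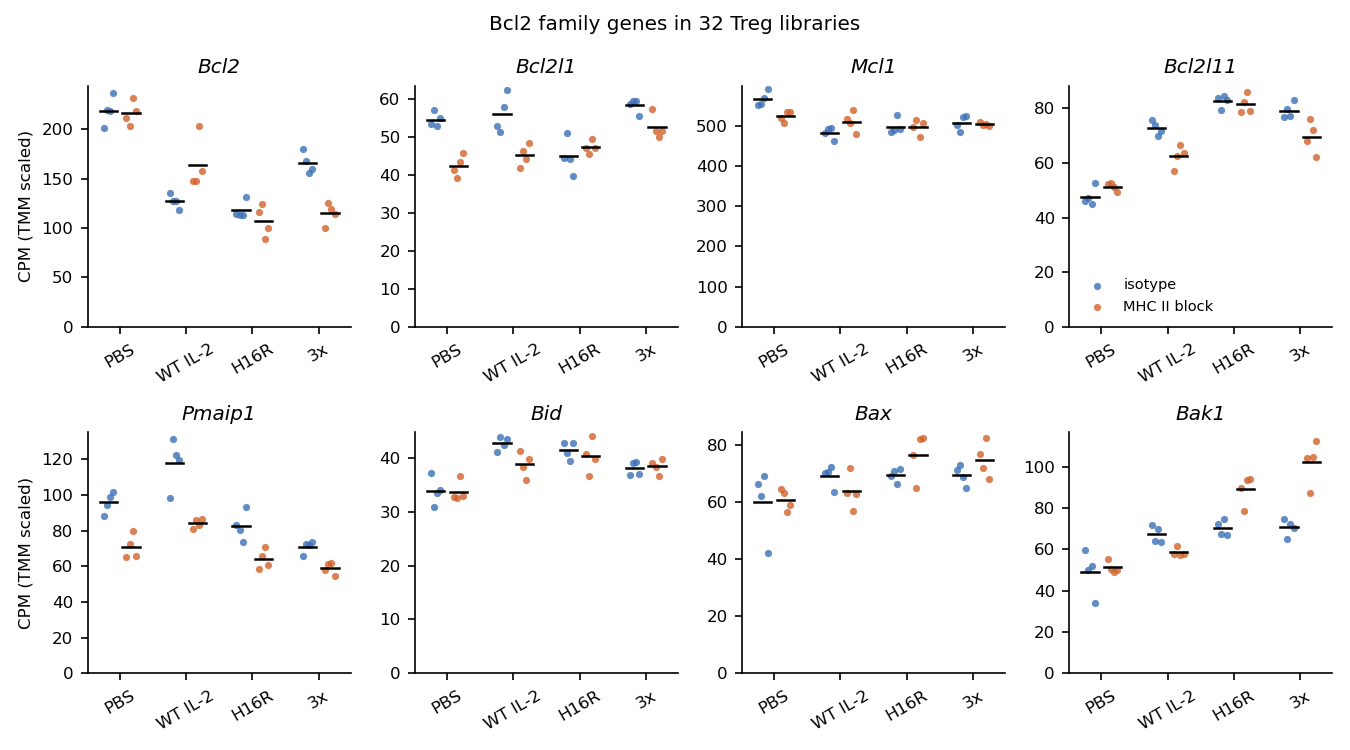
Level of the 8 measured members in each of the 32 Treg libraries, in CPM, by treatment and antibody arm. Points are libraries and bars are group means. Bcl2 lies between 201.5 and 236.4 CPM in isotype PBS Tregs and at or under 180.3 CPM in every isotype Treg library given an IL-2 molecule, while Bcl2l11 lies at or under 52.7 CPM with PBS in either arm and at or above 57.1 CPM with every molecule.

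The first question was what each IL-2 molecule did to the family in Tregs, with and without MHC II block. With isotype, Bcl2 and Mcl1 were lower and Bcl2l11, Bid and Bak1 higher after each of the 3 molecules than after PBS. Of the 8 members, 4 were higher and 2 lower after WT IL-2, where 52.2% of the 12392 genes tested passed the threshold of adjusted p under 0.1 (edgeR, Benjamini-Hochberg over all genes). After H16R 4 were higher and 4 lower (64.2% of all genes passed), and after the 3x mutein 4 were higher and 3 lower (63.6%). Under MHC II block, 3 members were higher and 1 lower after WT IL-2 (35.6% of all genes passed), 5 higher and 3 lower after H16R (66.5%), and 5 higher and 2 lower after the 3x mutein (73.0%). With so many genes passing, the directions are to be read against those of all genes. With isotype 26.0%, 31.4% and 31.3% of all genes were higher and 26.2%, 32.8% and 32.3% lower after WT IL-2, H16R and the 3x mutein. Under the block 21.9%, 32.7% and 34.7% were higher and 13.7%, 33.8% and 38.3% lower. For WT IL-2 under the block, 61.5% of all calls were higher, against 44.0% when scaled by total counts alone. The median log2 difference over the 8 members was 0.25, 0.01 and 0.14 with isotype for WT IL-2, H16R and the 3x mutein, against -0.01 over all genes in each, and 0.16, 0.20 and 0.24 with MHC II block, against 0.02, -0.02 and -0.04. The 3 comparisons of an arm share their PBS libraries.

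Bcl2 fell after every molecule in both arms. In isotype Tregs Bcl2 measured 201.5, 219.2, 218.4 and 236.4 CPM with PBS. It measured 135.1, 126.9, 127.0 and 118.4 CPM after WT IL-2. After H16R it measured 114.6, 113.3, 113.5 and 131.5 CPM, and after the 3x mutein 180.3, 167.8, 156.1 and 159.4 CPM. No treated library reached the lowest PBS library, and the 3x libraries lay between those of PBS and those of the other 2 molecules. The log2 difference from PBS was -0.79 ± 0.09 (SE) for WT IL-2 (adjusted p = 1.02e-07), -0.88 ± 0.09 for H16R (5.44e-09) and -0.39 ± 0.09 for the 3x mutein (0.0007), which are 0.58, 0.542 and 0.764 times the PBS level. In bulk RNA, fewer cells that express a gene and less of its RNA per cell cannot be told apart. In the MHC II block arm Bcl2 measured 210.9, 203.3, 231.2 and 218.4 CPM with PBS and 147.7, 147.7, 203.3 and 157.9 CPM with WT IL-2. It measured 116.6, 124.1, 89.3 and 99.8 CPM with H16R and 100.5, 125.8, 118.9 and 114.0 CPM with the 3x mutein. WT IL-2 replicate 3 met the lowest PBS library, and all libraries of both muteins lay well under it. Here the log2 difference was -0.38 ± 0.09 for WT IL-2 (0.0028), -1.01 ± 0.09 for H16R (4.54e-10) and -0.92 ± 0.09 for the 3x mutein (1.1e-09).

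Bcl2l11 went the other way. With isotype it measured 45.9, 47.1, 45.0 and 52.7 CPM with PBS and 75.7, 73.8, 69.7 and 71.6 CPM after WT IL-2. After H16R it measured 83.8, 79.5, 84.4 and 83.1 CPM, and after the 3x mutein 76.9, 79.6, 77.1 and 83.1 CPM. All treated libraries lay above all PBS libraries. The log2 difference was 0.61 ± 0.05 for WT IL-2 (adjusted p = 5.96e-10), 0.80 ± 0.05 for H16R (1.13e-12) and 0.74 ± 0.05 for the 3x mutein (6.41e-12), or 1.53, 1.74 and 1.68 times PBS. In the block arm the PBS libraries measured 52.2, 52.5, 51.3 and 49.3 CPM and the WT IL-2 libraries 57.1, 62.7, 66.5 and 63.8 CPM. The H16R libraries measured 78.8, 82.2, 86.1 and 78.9 CPM and the 3x libraries 68.0, 76.2, 72.0 and 62.2 CPM. Again no treated library overlapped PBS, with log2 differences of 0.30 ± 0.05 for WT IL-2 (0.000116), 0.67 ± 0.05 for H16R (3.02e-11) and 0.43 ± 0.05 for the 3x mutein (4.92e-08). These are messenger RNA levels. Bcl-2 and Bim protein were not part of these data.

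The ratio of Bcl2 to Bcl2l11, set per kilobase with FPKM, put the pair into 1 value per library. In isotype Tregs it was 2.60 ± 0.036 (SD, n = 4) with PBS, 0.978 ± 0.058 after WT IL-2, 0.830 ± 0.067 after H16R and 1.2 ± 0.10 after the 3x mutein. When MHC II was blocked it was 2.40 ± 0.13 with PBS, 1.49 ± 0.19 after WT IL-2, 0.765 ± 0.13 after H16R and 0.960 ± 0.084 after the 3x mutein. The lowest PBS library of either arm stood at 2.209 and the highest treated Treg library at 1.760. The order of the 2 molecules WT IL-2 and 3x was reversed between the arms: with isotype the 3x libraries (1.089 to 1.330) lay above those of WT IL-2 (0.905 to 1.042), and with MHC II block they lay below (0.867 to 1.065 against 1.348 to 1.760). This ratio was given no test of its own.

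**Figure D2:**
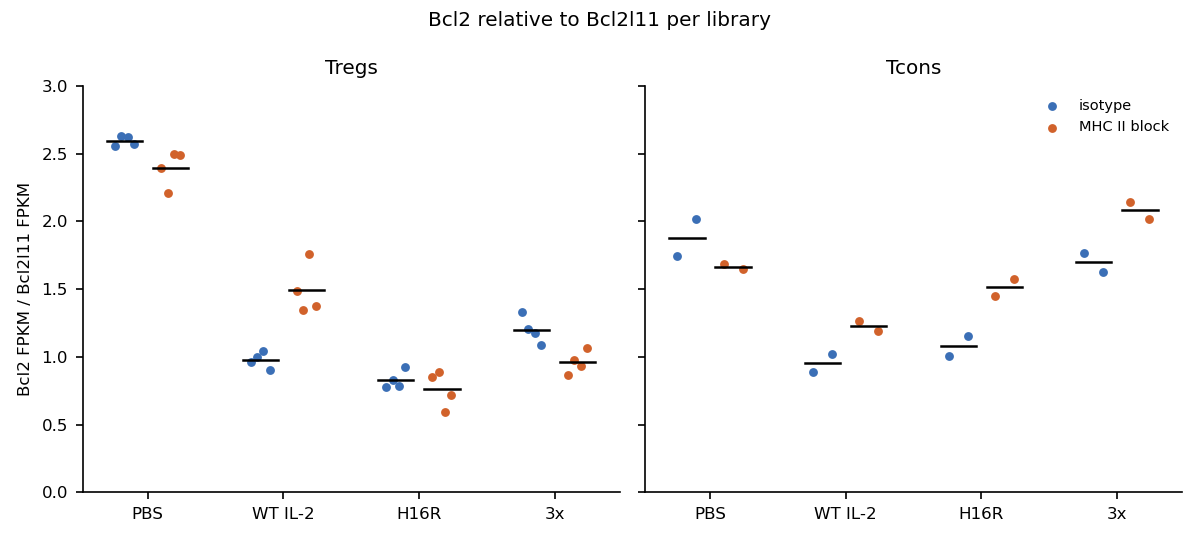
Ratio of Bcl2 to Bcl2l11 FPKM in each of the 48 libraries, by treatment, antibody arm and cell type. Points are libraries and bars are group means. The ratio in Tregs is 2.209 or more with PBS and 1.760 or less after every IL-2 molecule.

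Other markers moved with these differences. In isotype Tregs the 4 Treg markers summed to 2450 to 3100 CPM with PBS and to 3670 to 4200 CPM after the 3 molecules, and with MHC II block to 2610 to 2820 CPM with PBS, 2240 to 3200 with WT IL-2, 3480 to 3850 with H16R and 3750 to 4230 with the 3x mutein. The T cell markers Cd3e and Cd4 summed to 784 to 896 CPM in isotype PBS Tregs and 1070 to 1260 CPM after the molecules, and with the block to 857 to 962 CPM with PBS, 803 to 1070 with WT IL-2 and 1110 to 1330 with the muteins. The cycling genes Mki67, Top2a, Ccnb1, Cdk1 and Mcm2 summed to 356 to 420 CPM in isotype PBS Tregs and to 446 to 952 CPM after the molecules, and to 395 to 422 and 456 to 1270 CPM with MHC II block. The 6 B cell markers summed to 103 to 567 CPM in isotype PBS Tregs and to 24.4 to 80.5 CPM after the molecules, and with MHC II block to 49.5 to 124 CPM with PBS, 72.7 to 533 with WT IL-2 and 42.8 to 111 with the muteins. The 6 myeloid markers went from 21.8 to 107 CPM with PBS to 7.64 to 20.0 CPM after the molecules with isotype, and from 17.8 to 28.7 CPM with PBS to 27.7 to 539 CPM with WT IL-2 and 22.0 to 48.6 CPM with the muteins under the block. The 5 NK and CD8 T cell markers went from 33.5 to 39.0 CPM to 16.3 to 28.9 CPM with isotype, and from 25.3 to 31.0 CPM to 38.5 to 82.7 CPM with WT IL-2 and 31.3 to 57.8 CPM with the muteins under the block. No marker of these lists was at 0 in all libraries of a group. The part of these shifts in the member differences was not tested. With all 3 libraries that stood apart left out, a choice made after seeing the data, Bcl2 and Bcl2l11 kept their calls in all 6 comparisons.

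Bak1, which encodes the effector Bak, rose most in Tregs after the muteins under MHC II block. With isotype it measured 59.9, 49.9, 52 and 33.9 CPM with PBS and 71.6, 64.1, 69.7 and 63.6 CPM with WT IL-2. It measured 72.2, 67.7, 74.9 and 67.0 CPM with H16R and 74.7, 65.0, 72.4 and 70.5 CPM with the 3x mutein. The PBS libraries lay under all of these, and the low value of 33.9 CPM came from the shallowest library. The log2 difference was 0.45 ± 0.10 for WT IL-2 (adjusted p = 0.000708), 0.52 ± 0.10 for H16R (7.74e-05) and 0.53 ± 0.10 for the 3x mutein (6.11e-05). Without isotype PBS replicate 4 these were 0.32, 0.38 and 0.40, all still called. With MHC II block Bak1 measured 55.5, 50.7, 49.3 and 50.2 CPM with PBS and 58.0, 61.9, 57.2 and 57.8 CPM with WT IL-2. It then measured 89.8, 78.7, 93.6 and 94.1 CPM with H16R and 104.2, 87.5, 104.7 and 112.7 CPM with the 3x mutein. Both muteins thus stood clear of WT IL-2, and the log2 difference from PBS was 0.79 ± 0.10 for H16R (1.26e-07) and 0.98 ± 0.10 for the 3x mutein (1.35e-09), or 1.97-fold. For WT IL-2 it was 0.21 (95% interval 0.01 to 0.42) and was not called (0.117), although all 4 libraries lay above those of PBS.

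Bax, the other effector, moved less. It measured 66.3, 62.3, 69.0 and 42.0 CPM in isotype PBS Tregs and 63.5 to 73.1 CPM in the 12 isotype libraries given a molecule, so the groups overlapped. The log2 difference with isotype was 0.20 for WT IL-2 (adjusted p = 0.112, not called, but 0.071 to 0.271 with 1 library left out and called without PBS replicate 1 or 3 or WT IL-2 replicate 3b), 0.21 ± 0.10 for H16R (0.0804) and 0.21 ± 0.10 for the 3x mutein (0.0696). Both calls were lost without isotype PBS replicate 4, where the differences were 0.07 (0.427) and 0.09 (0.361), in 6 of 14 other settings each (adjusted p up to 0.479 and 0.438), and without any of 3 and 2 further libraries. Under MHC II block Bax measured 64.5, 63.1, 56.4 and 59.1 CPM with PBS, 76.7, 65.0, 82.1 and 82.4 CPM with H16R and 77.0, 72.0, 82.4 and 68.2 CPM with the 3x mutein. Libraries of both muteins lay above all PBS libraries, by 0.33 ± 0.10 (0.00564) and 0.29 ± 0.10 (0.0116) on the log2 scale. With WT IL-2 it measured 57.0 to 72.1 CPM, and the difference of 0.09 was not called (0.542).

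Pmaip1, which encodes Noxa, the BH3-only protein that binds Mcl-1, separated WT IL-2 from both muteins. With isotype it measured 88.2, 94.5, 99.1 and 101.5 CPM with PBS and 98.5, 131.2, 122.5 and 119.9 CPM with WT IL-2. It measured 83.4, 80.5, 73.9 and 93.1 CPM with H16R and 66.0, 72.4, 72.1 and 73.4 CPM with the 3x mutein. The WT IL-2 group was the highest, with 1 library among those of PBS, and the 3x libraries all lay under PBS. The log2 difference from PBS was 0.30 ± 0.08 for WT IL-2 (adjusted p = 0.00246), -0.21 ± 0.08 for H16R (0.0247) and -0.42 ± 0.08 for the 3x mutein (4.45e-05). In the MHC II block arm Pmaip1 measured 65.2, 72.6, 79.7 and 66.0 CPM with PBS and 81.0, 85.8, 83.3 and 86.3 CPM with WT IL-2. It measured 58.4, 65.7, 70.9 and 60.8 CPM with H16R and 58.1, 61.2, 62.1 and 54.3 CPM with the 3x mutein. The order of the groups was that of the isotype arm at a lower level, with log2 differences of 0.26 ± 0.08 (0.0119), -0.15 ± 0.08 (0.0952) and -0.28 ± 0.08 (0.00283). The H16R call in this arm was lost in 5 of 14 other settings (adjusted p up to 0.253) and without any of 4 of the 8 libraries. That with isotype was lost without H16R replicate 3, where it was -0.155 (0.112).

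Bid, the BH3-only protein that caspase-8 cuts to link death receptors to mitochondria, was higher after every molecule in both arms. It lay between 31.0 and 37.3 CPM in the 8 PBS libraries and between 35.9 and 44.1 CPM in the 24 treated ones, so a few libraries overlapped. The log2 difference with isotype was 0.33 ± 0.06 for WT IL-2 (adjusted p = 4.29e-05), 0.29 ± 0.06 for H16R (0.000114) and 0.17 ± 0.06 for the 3x mutein (0.0135). In the block arm it was 0.22 ± 0.06 (0.00463), 0.25 ± 0.06 (0.000392) and 0.18 ± 0.06 (0.00713).

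Mcl1 was lower after every molecule with isotype, by little in CPM. It measured 551.5, 554.3, 569.4 and 592.7 CPM with PBS and 461.5 to 526.2 CPM in the 12 treated libraries, with no overlap. The log2 difference was -0.23 ± 0.04 for WT IL-2 (adjusted p = 1.48e-05), -0.18 ± 0.04 for H16R (0.00017) and -0.15 ± 0.04 for the 3x mutein (0.00152). In FPKM the group means were 181.4 with PBS and 152.0, 150.3 and 147.3 after WT IL-2, H16R and the 3x mutein. The size of the fall and the order of the molecules thus depended on the scale. When MHC II was blocked the PBS libraries measured 507.6 to 534.6 CPM and the treated ones 472.6 to 538.6 CPM, and the groups overlapped. Of the 3 differences, -0.02 for WT IL-2 (0.723), -0.08 for H16R (0.0838) and -0.07 for the 3x mutein (0.116), only that of H16R was called, and it was lost in 6 of 14 other settings (adjusted p up to 0.618) and without any of 6 of the 8 libraries.

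Bcl2l1, which encodes Bcl-xL, had no common direction. With isotype it measured 53.5, 57.1, 52.8 and 55.0 CPM with PBS and 44.5, 51.2, 44.2 and 39.8 CPM with H16R. It measured 52.8, 51.3, 57.9 and 62.3 CPM with WT IL-2 and 58.8, 59.5, 59.4 and 55.6 CPM with the 3x mutein. H16R was the low group, and the other 2 overlapped PBS. The log2 difference was -0.28 ± 0.06 for H16R (adjusted p = 0.000517), 0.04 (95% interval -0.09 to 0.17) for WT IL-2 (0.658) and 0.105 (interval -0.03 to 0.24) for the 3x mutein (0.16). With MHC II block it measured 41.4, 39.1, 43.3 and 45.8 CPM with PBS and 41.9, 46.4, 44.1 and 48.5 CPM with WT IL-2. It measured 47.0, 45.5, 49.4 and 47.2 CPM with H16R and 57.5, 51.7, 49.9 and 51.7 CPM with the 3x mutein. Only the 3x libraries all lay above PBS. The differences were 0.11 for WT IL-2 (0.199, not called), 0.15 ± 0.06 for H16R (0.0401) and 0.30 ± 0.06 for the 3x mutein (0.000138). The H16R call was lost in 4 of 14 other settings (adjusted p up to 0.362) and without MHC II block PBS replicate 2 or H16R replicate 3.

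**Figure D3:**
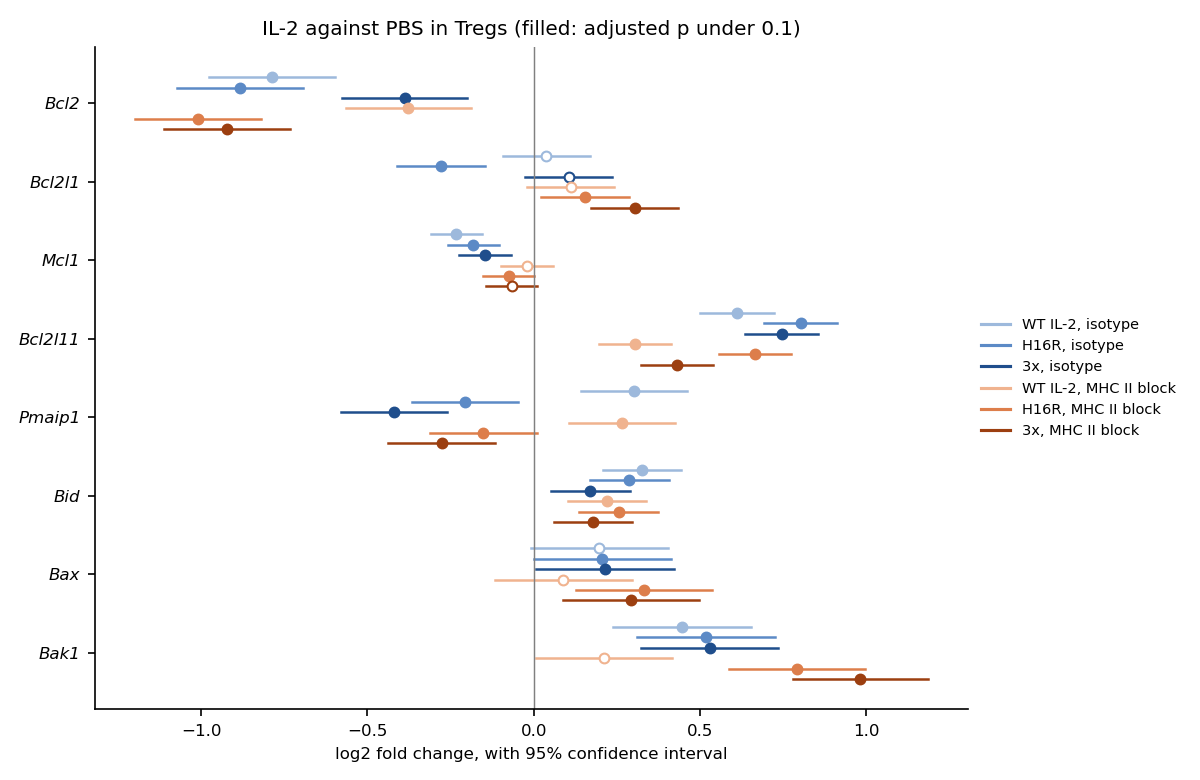
Log2 difference of each member between an IL-2 molecule and PBS in Tregs, with its 95% interval, for the isotype arm and for MHC II block. The intervals of Bcl2 lie below 0 and those of Bcl2l11 and Bid above 0 for all 3 molecules in both arms, and Pmaip1 is positive for WT IL-2 and negative for both muteins.

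The second question was what MHC II block did at each treatment. Pmaip1 was lower with the block at all 4 treatments, whereas Bcl2 was higher with it after WT IL-2 and lower after the 3x mutein. In PBS Tregs 3 of the 8 members were lower and 0 higher, where 14.1% of all genes passed. The median over the members was -0.02, against -0.01 over all genes. In WT IL-2 Tregs 2 were higher and 3 lower (33.6% of all genes passed, members' median -0.15, all genes 0.01). In H16R Tregs 1 was higher and 1 lower (30.7%, -0.02, all genes 0.00), and in 3x Tregs 1 was higher and 4 lower (54.1%, -0.10, all genes 0.00).

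The log2 difference of Pmaip1 was -0.43 ± 0.08 in PBS Tregs (adjusted p = 0.000637), -0.47 ± 0.08 in WT IL-2 Tregs (5.05e-05), -0.38 ± 0.08 in H16R Tregs (0.0013) and -0.29 ± 0.08 in 3x Tregs (0.00338). At each treatment the 4 libraries with the block lay under the 4 with isotype. In PBS Tregs the NK and CD8 T cell markers were lower with the block as well (33.5 to 39.0 CPM with isotype, 25.3 to 31.0 CPM with the block), and their part was not tested. That of Bcl2l1 was -0.37 ± 0.06 in PBS Tregs (0.000502), -0.29 ± 0.06 in WT IL-2 Tregs (0.000991) and -0.17 ± 0.06 in 3x Tregs (0.0299), the last of which was lost in 7 of 14 other settings (adjusted p up to 0.162). In PBS Tregs Bcl2l1 stood at 52.8 to 57.1 CPM with isotype and at 39.1 to 45.8 CPM with the block, with no overlap. Mcl1 was lower in PBS Tregs (-0.11 ± 0.04, 0.0564) and higher in WT IL-2 Tregs (0.10 ± 0.04, 0.0544), and these calls were lost in 7 and 9 of 14 other settings (adjusted p up to 0.418 and 0.396) and without any of 4 of the 8 libraries in each case.

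Bcl2 showed the widest contrast between treatments. With the block it was higher in WT IL-2 Tregs (0.39 ± 0.09, adjusted p = 0.00217) and lower in 3x Tregs (-0.55 ± 0.09, 2.39e-05), with no overlap of libraries in either case. In WT IL-2 Tregs other markers also differed between the arms without overlap. The Treg markers summed to 3670 to 4200 CPM with isotype and 2240 to 3200 CPM with the block, the T cell markers to 1110 to 1240 and 803 to 1070 CPM, the myeloid markers to 11.9 to 20.0 and 27.7 to 539 CPM, and the NK and CD8 T cell markers to 22.0 to 28.9 and 38.5 to 82.7 CPM. Their part in the differences of this group was not tested. PBS Tregs measured 201.5 to 236.4 CPM with isotype and 203.3 to 231.2 CPM with the block. Bcl2l11 was lower with the block in WT IL-2 Tregs (-0.20 ± 0.05, 0.00548) and in 3x Tregs (-0.21 ± 0.05, 0.00195), again with no overlap. Bak1 was higher in H16R Tregs (0.33 ± 0.10, 0.0177) and in 3x Tregs (0.51 ± 0.10, 0.00013), and here too the libraries were apart. In WT IL-2 Tregs Bak1 was not called, and its 4 libraries with the block (57.2 to 61.9 CPM) lay under those with isotype (63.6 to 71.6 CPM). The cycling markers summed to 678 to 772 CPM with the block and 471 to 594 CPM with isotype in H16R Tregs, and to 947 to 1270 and 625 to 952 CPM in 3x Tregs. Markers of other cell types were higher with the block after both muteins, again without overlap. In H16R Tregs the B cell markers summed to 26.6 to 34.7 CPM with isotype and 42.8 to 75.6 CPM with the block, the myeloid markers to 7.64 to 10.1 and 23.4 to 48.6 CPM, and the NK and CD8 T cell markers to 16.3 to 22.2 and 31.4 to 38.8 CPM. In 3x Tregs these sums were 24.4 to 31.9 and 49.2 to 111 CPM, 8.85 to 10.4 and 22.0 to 33.1 CPM, and 19.3 to 24.4 and 31.3 to 57.8 CPM. The part of these markers in the differences was not tested. For Bid and Bax the adjusted p lay between 0.114 and 0.968 over the 4 treatments.

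**Figure D4:**
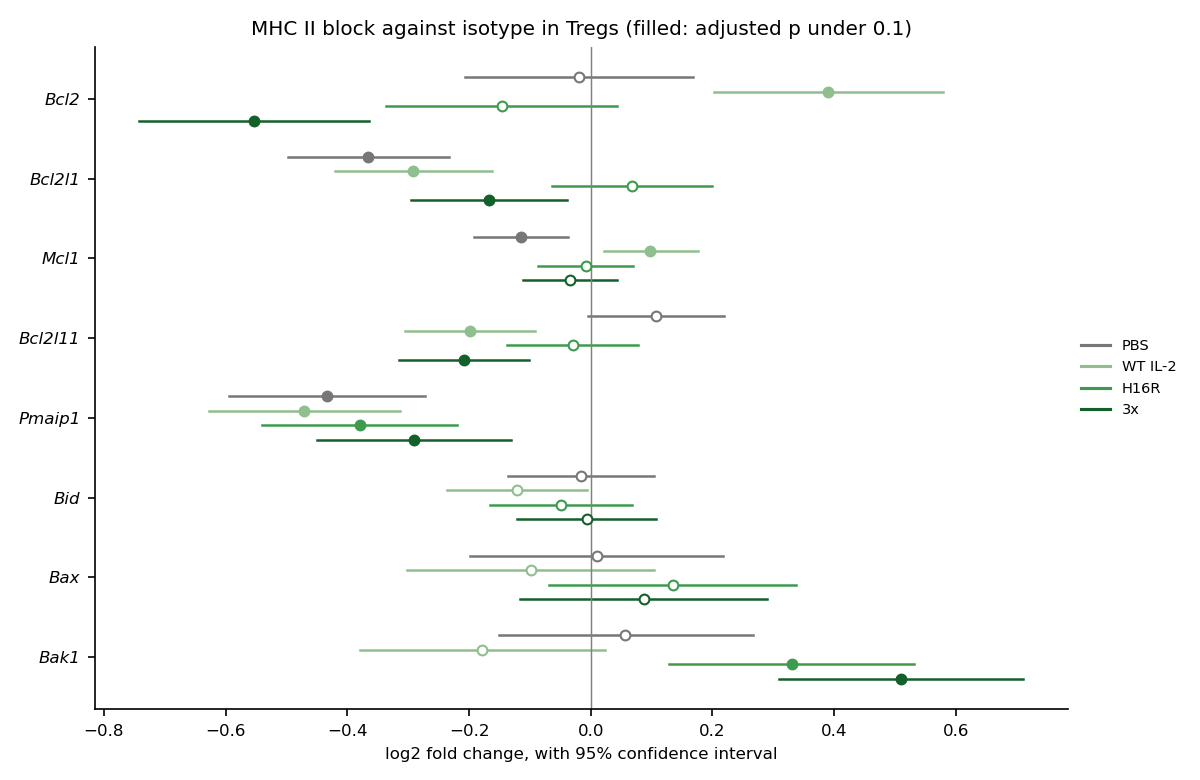
Log2 difference of each member between MHC II block and isotype in Tregs at each of the 4 treatments, with its 95% interval. Pmaip1 lies below 0 at every treatment, Bcl2 above 0 after WT IL-2 and below 0 after the 3x mutein, and Bak1 above 0 after both muteins.

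Whether the response to a molecule itself differed between arms was tested as an interaction, the difference from PBS with the block minus that with isotype. For WT IL-2, 2 members were higher and 1 lower in this measure (19.7% of all genes passed), and 5 were called without both libraries that carried B cell transcripts. The fall of Bcl2 was smaller with the block by 0.41 ± 0.13 on the log2 scale (adjusted p = 0.0322), the rise of Bcl2l11 smaller (-0.31 ± 0.08, 0.00575) and the fall of Mcl1 smaller by 0.21 ± 0.05 (0.00683). For H16R, 1 member was called (19.1%), Bcl2l1, by 0.43 ± 0.09 (0.00314), and 4 were called without isotype PBS replicate 4. For the 3x mutein, 2 were higher and 2 lower (39.0%). The fall of Bcl2 was larger with the block (-0.53 ± 0.13, 0.00309), the rise of Bak1 larger by 0.45 ± 0.14 (0.0165), the rise of Bcl2l11 smaller (-0.32 ± 0.08, 0.00265), and Bcl2l1 differed by 0.20 ± 0.09 (0.0936, lost in 4 of 13 other settings with adjusted p up to 0.149, and without any of 11 of the 16 libraries). WT IL-2 and the 3x mutein thus had opposite signs for Bcl2 and the same sign for Bcl2l11. The members' medians for WT IL-2, H16R and the 3x mutein were -0.07, 0.08 and 0.08, against 0.01, 0.01 and 0.00 over all genes.

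The third question was how the molecules differed from each other at the same dose and day. The 3 pairs were compared in each arm, and p-values were adjusted over all genes within each pair. With isotype, H16R against WT IL-2 gave 1 member higher and 2 lower (18.6% of all genes passed), the 3x mutein against WT IL-2 gave 3 higher and 2 lower (34.7%), and the 3x mutein against H16R gave 2 higher and 1 lower (11.5%). Under MHC II block the same pairs gave 3 higher and 2 lower (57.5%), 4 higher and 2 lower (68.7%), and 0 higher and 1 lower (25.2%). The members' medians lay between -0.02 and 0.08 with isotype and between -0.02 and 0.04 with the block, and those of all genes between -0.06 and 0.00. The count for the 3x mutein against WT IL-2 with isotype ranged from 2 to 5 with 1 library left out, and that for the 3x mutein against H16R under the block from 1 to 3.

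Pmaip1 was lower with either mutein than with WT IL-2 in both arms. With isotype the log2 difference was -0.51 ± 0.08 for H16R (adjusted p = 0.000167) and -0.72 ± 0.08 for the 3x mutein (1.92e-07), and with MHC II block it was -0.42 ± 0.08 (0.000112) and -0.54 ± 0.08 (1.34e-06). Between the muteins it was -0.21 ± 0.08 with isotype (0.0904), a call lost in 6 of 14 other settings (adjusted p up to 0.209) and without any of 7 of the 8 libraries. WT IL-2 was thus above both muteins in either arm. Markers differed between the molecules too. Under the block the cycling markers summed to 456 to 582 CPM with WT IL-2, 678 to 772 with H16R and 947 to 1270 with the 3x mutein, and the Treg markers to 2240 to 3200, 3480 to 3850 and 3750 to 4230 CPM. With isotype the B cell markers summed to 43.0 to 80.5, 26.6 to 34.7 and 24.4 to 31.9 CPM, the myeloid markers to 11.9 to 20.0, 7.64 to 10.1 and 8.85 to 10.4 CPM, and the cycling markers to 446 to 585, 471 to 594 and 625 to 952 CPM. The part of these in the differences between molecules was not tested.

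Bcl2 did not keep its order. With isotype it was higher with the 3x mutein than with WT IL-2 (0.40 ± 0.09, adjusted p = 0.00182) and than with H16R (0.50 ± 0.09, 0.00157), and H16R against WT IL-2 gave -0.10 (95% interval -0.29 to 0.09, 0.549). In the MHC II block arm it was lower than with WT IL-2 for both H16R (-0.63 ± 0.09, 5.13e-06) and the 3x mutein (-0.54 ± 0.09, 1.37e-05), and the 2 muteins differed by 0.09 (interval -0.10 to 0.28, 0.576). The change between the arms was -0.54 ± 0.13 for H16R against WT IL-2 (0.00803) and -0.94 ± 0.13 for the 3x mutein against WT IL-2 (3.87e-06).

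Bak1 was called between WT IL-2 and the muteins with the block, and with isotype the intervals of these differences included 0. With isotype, H16R and the 3x mutein differed from WT IL-2 by 0.07 (interval -0.13 to 0.27, adjusted p = 0.694) and 0.08 (interval -0.12 to 0.28, 0.569). In the block arm they were higher by 0.58 ± 0.10 (3.64e-05) and 0.77 ± 0.10 (2.1e-07), and the 3x mutein against H16R gave 0.19 (interval -0.01 to 0.39, 0.185). The change between the arms was 0.51 ± 0.14 (0.0171) and 0.69 ± 0.14 (0.000406). In these comparisons across arms, H16R against WT IL-2 gave 2 members higher and 1 lower (23.5% of all genes passed) and the 3x mutein against WT IL-2 gave 1 higher and 2 lower (43.8%). The remaining calls were Bcl2l1 for H16R (0.36 ± 0.09, 0.00951) and Mcl1 for the 3x mutein (-0.13 ± 0.05, 0.0541, lost in 9 of 13 other settings with adjusted p up to 0.496, and without any of 8 of the 16 libraries, and of the other sign, 0.075, by limma on FPKM).

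Bcl2l11, Bcl2l1, Bax, Bid and Mcl1 also differed between molecules. Bcl2l11 was higher after H16R than after WT IL-2 in both arms, by 0.19 ± 0.05 with isotype (adjusted p = 0.0161) and 0.36 ± 0.05 with the block (4.74e-06). It was higher with the 3x mutein than with WT IL-2 by 0.13 ± 0.05 in either arm (0.0548 and 0.0385, each lost in 5 of 14 other settings with adjusted p up to 0.533 and 0.147, and without any of 3 and 2 of the 8 libraries). Under the block it was lower with the 3x mutein than with H16R (-0.24 ± 0.05, 0.00229). In isotype Tregs Bcl2l1 was lower after H16R than after WT IL-2 (-0.32 ± 0.06, 0.00171) and higher with the 3x mutein than with H16R (0.39 ± 0.06, 0.000535), and with the block it was higher with the 3x mutein than with WT IL-2 (0.19 ± 0.06, 0.0101). Bax was higher than with WT IL-2 under the block for H16R (0.24 ± 0.10, 0.0439) and for the 3x mutein (0.20 ± 0.10, 0.0756), and each of these calls was lost without any of 3 of the 8 libraries. Bid was lower with the 3x mutein than with WT IL-2 with isotype (-0.16 ± 0.06, 0.0378, lost without any of 3 of the 8 libraries), and Mcl1 was higher (0.09 ± 0.04, 0.0942, lost in 10 of 14 other settings with adjusted p up to 0.662 and without any of 6 of the 8 libraries, and of the other sign, -0.045, by limma on FPKM).

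The fourth comparison set Tregs against Tcons of the same 16 mice, with the mouse as a block. Bcl2l1 stood out: its message was about 2.03 times as high in Tregs. Over all mice 7 of the 8 members were higher in Tregs and 0 lower, where 75.9% of 12844 genes passed, and the members' median was 0.25 against 0.00 over all genes. Bcl2l1 measured 39.1 to 62.3 CPM in the 32 Treg libraries and 20.0 to 29.2 CPM in the 16 Tcon libraries, and its log2 difference was 1.02 ± 0.06 (adjusted p = 1.6e-11), higher in 16 of 16 mice. Pmaip1 was higher by 0.80 ± 0.11 (1.96e-06) and Bax by 0.25 ± 0.02 (6.62e-09), each in 16 of 16 mice. Bid (0.37 ± 0.05, 8.04e-06, 15 mice), Bak1 (0.26 ± 0.06, 0.000603, 13 mice), Mcl1 (0.10 ± 0.02, 0.000573, 15 mice) and Bcl2l11 (0.09 ± 0.04, 0.0752, 11 mice) completed the list, and the calls of Mcl1 and Bcl2l11 were lost in 4 and 8 of 12 other settings (adjusted p up to 0.662 and 0.732), that of Bcl2l11 also in 9 of 16 fits with 1 mouse left out (0.059 to 0.114). On the FPKM scale, both were at or just under 0 (-0.02 for Mcl1 and -0.03 to -0.02 for Bcl2l11 by limma), and so was Mcl1 in treated mice (-0.05). Bcl2 differed by -0.14 (interval -0.37 to 0.09, 0.264). The fractions also differed in markers of other cells: over all groups the B cell markers summed to 24.4 to 567 CPM in Tregs and 103 to 860 CPM in Tcons, the myeloid markers to 7.64 to 539 and 39.4 to 644 CPM, and the NK and CD8 T cell markers to 16.3 to 82.7 and 37.6 to 197 CPM. Their part in the gap between Tregs and Tcons was not tested.

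The pair Bcl2 and Bcl2l11 did not stand in the same place in PBS and in treated mice. In the 4 PBS mice 4 of 8 members were higher and 1 lower in Tregs (44.6% of all genes passed), and in the 12 mice given a molecule 7 were higher and 1 lower (78.1%). Bcl2 was higher in Tregs in 4 of 4 PBS mice, with a log2 difference of 0.29 (interval -0.10 to 0.68, adjusted p = 0.236). It was higher in 3 of 12 treated mice, and lower with the molecules pooled (-0.29 ± 0.11, 0.0242). Those 3 were all WT IL-2 mice, with log2 ratios of 0.3, 0.22 and 0.18, and the remaining WT IL-2 mouse stood at -0.01. In every mutein mouse the ratio was below 0, from -1.29 to -0.14. Bcl2l11 was higher in 0 of 4 PBS mice (-0.15 ± 0.06, 0.0771, lost without isotype PBS replicate 1 or 2) and in 11 of 12 treated mice (0.17 ± 0.04, 0.000382). The difference between treated and PBS mice was itself called for 2 members higher and 1 lower (37.0% of all genes passed). These were Bcl2 (-0.58 ± 0.21, 0.0541), Bcl2l11 (0.31 ± 0.07, 0.00616) and Bid (0.31 ± 0.10, 0.0339). The values pool molecules and arms, and a split by either was not tested. The Bid log2 ratios with isotype were 0.11 and -0.12 in PBS mice and 0.36 to 0.72 in treated mice. Under the block they overlapped, at 0.27 and 0.25 with PBS and 0.13 to 0.44 after treatment. The members' median was 0.18 in PBS mice, 0.29 in treated mice and 0.055 in the difference, against -0.02, 0.01 and 0.00 over all genes. The call of Bcl2 was lost without either MHC II block PBS mouse, and that of Bid without isotype PBS replicate 2.

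**Figure D5:**
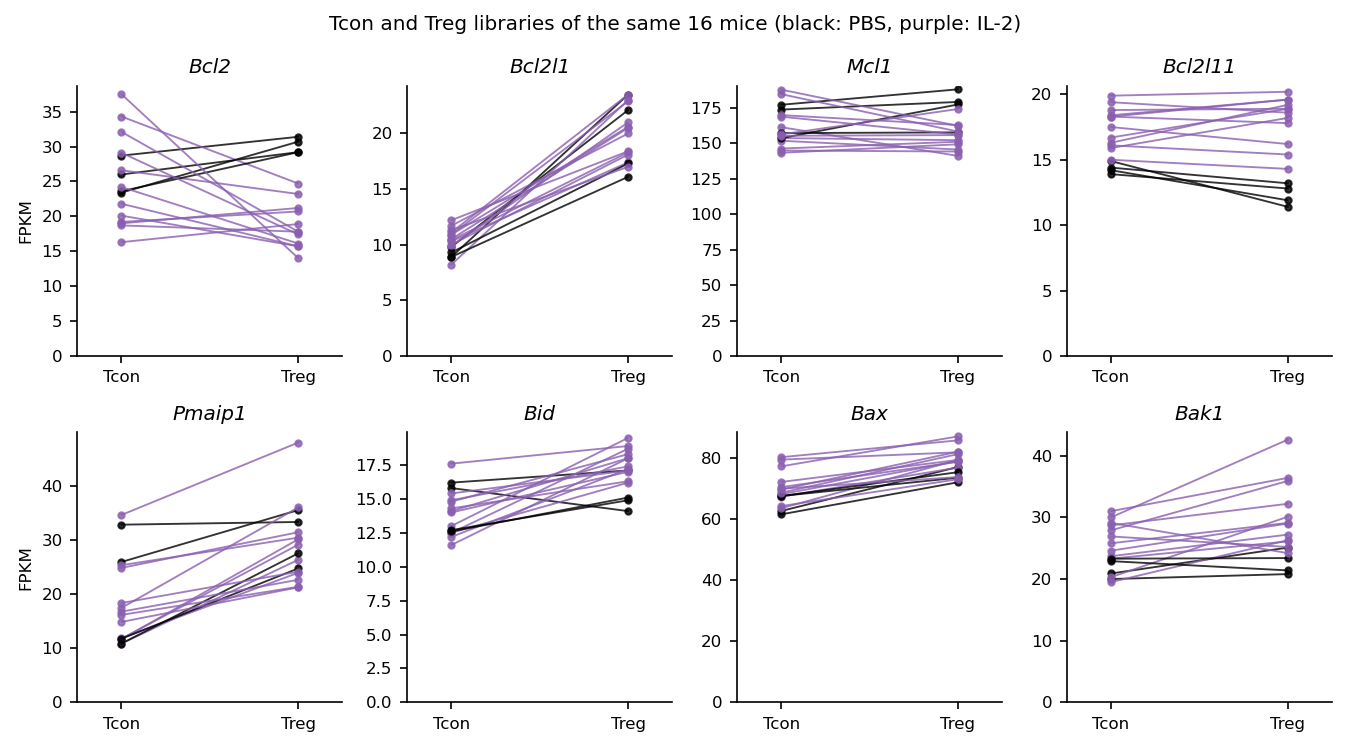
Level of each member in Tregs and Tcons of the same mouse, with a line for each of the 16 mice. Bcl2l1, Pmaip1 and Bax are higher in Tregs in 16 of 16 mice, and Bcl2 in 7 of 16.

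In Tcons, with 2 libraries a group, the arms were fitted as 1 set. Bcl2l11 was higher after all 3 molecules here too, at 52.7 to 57.2 CPM with PBS and 57.3 to 74.9 CPM after treatment. Against PBS, WT IL-2 gave 2 members higher and 1 lower (27.2% of 12526 genes passed), H16R gave 3 higher and 0 lower (31.1%), and the 3x mutein gave 2 higher and 0 lower (9.88%). The members' medians were 0.146, 0.019 and 0.145, against 0.01, 0.01 and 0.02 over all genes. With 1 library left out, H16R gave 2 to 5 calls and the 3x mutein 1 to 2. The log2 difference of Bcl2l11 was 0.23 ± 0.05 for WT IL-2 (adjusted p = 0.0128), 0.35 ± 0.05 for H16R (0.000976) and 0.30 ± 0.05 for the 3x mutein (0.00824). Bak1 was higher after WT IL-2 (0.28 ± 0.06, 0.0109) and H16R (0.29 ± 0.06, 0.00685), and Bcl2l1 after H16R (0.26 ± 0.09, 0.0574, lost without any of 5 of the 8 libraries). MHC II block against isotype gave 1 member higher, Bak1 (0.29 ± 0.04, 0.0023), and 1 lower, Bcl2l11 (-0.16 ± 0.04, 0.0181), where 28.9% of all genes passed and the members' median was 0.065 against 0.00.

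Bcl2 in Tcons parted by molecule. It measured 176.6 and 192.1 CPM with PBS and 109.5 and 127.7 CPM with WT IL-2 in the isotype arm. There it measured 135.5 and 147.1 CPM with H16R and 237.5 and 184.5 CPM with the 3x mutein. When MHC II was blocked it measured 157.8 and 159.5 CPM with PBS, 126.9 and 130.8 CPM with WT IL-2, 161.3 and 198.2 CPM with H16R and 245.1 and 212.2 CPM with the 3x mutein. WT IL-2 libraries were the lowest in both arms, and those of H16R lay under PBS with isotype and above PBS with the block. The fit has no term for a treatment effect that differs between arms in Tcons, so such a difference was not tested. Over both arms Bcl2 was lower after WT IL-2 (-0.48 ± 0.11, adjusted p = 0.0161) and higher after the 3x mutein (0.35 ± 0.11, 0.0904), and the second call was lost in 3 of 11 other settings, the replicate block among them (adjusted p up to 0.12), and without any of 6 of the 8 libraries.

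Pmaip1 ranged from 28.5 to 90.9 CPM in Tcons. It measured 85.2 and 66.9 CPM with PBS and isotype and 30.8 and 28.5 CPM with PBS and MHC II block. In the isotype arm it measured 46.1 and 90.9 CPM with WT IL-2, 30.2 and 30.5 CPM with H16R and 31.2 and 28.9 CPM with the 3x mutein, and 90.9 CPM came from the library with the high Treg markers. With the block it measured 65.8 and 65.7 CPM with WT IL-2, 38.4 and 47.6 CPM with H16R and 40.8 and 42.8 CPM with the 3x mutein. Both muteins thus lay under PBS with isotype and above PBS with the block, and the fit averages over these opposite directions. Its differences from PBS over both arms were 0.37 (interval -0.33 to 1.06), -0.50 (-1.21 to 0.21) and -0.52 (-1.23 to 0.19) for WT IL-2, H16R and the 3x mutein, and none was called (adjusted p 0.439, 0.288 and 0.365). With 1 library left out they ran from 0.123 to 0.66, from -0.753 to -0.222 and from -0.782 to -0.248, again with no call. The value for WT IL-2 was lowest without MHC II block PBS replicate 2 (0.123) and highest without isotype PBS replicate 1 (0.66), it was 0.163 without isotype WT IL-2 replicate 2, the library with the high Treg markers, and 0.146 without MHC II block PBS replicate 1. Those of the muteins were nearest 0 without isotype PBS replicate 1 and farthest from it without MHC II block PBS replicate 2. The 6 B cell markers summed to 782 to 860 CPM in isotype PBS Tcons and to 103 to 395 CPM in the other Tcon groups. The myeloid markers summed to 39.4 to 40.0 CPM in MHC II block PBS Tcons, 455 to 644 CPM with WT IL-2, 185 to 192 with H16R and 230 to 244 with the 3x mutein, and to 142 to 174 CPM in isotype PBS Tcons and 51.4 to 118 CPM after the molecules. The NK and CD8 T cell markers summed to 37.6 to 40.8 CPM in MHC II block PBS Tcons and to 74.9 to 197 CPM in the other Tcon groups. The 5 erythroid markers summed to 3.06 to 10.4 CPM in PBS Tcons, 17.5 to 260 with WT IL-2, 22.8 to 59.8 with H16R and 2.62 to 31.8 with the 3x mutein. The cycling markers summed to 414 to 465 CPM in isotype PBS Tcons, 483 to 857 with WT IL-2, 665 to 681 with H16R and 289 to 389 with the 3x mutein, and with the block to 477 to 496 CPM with PBS and 614 to 841 CPM after the molecules, beside the Tcon calls of Bak1. The part of these in the Tcon values was not tested.

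Across the 32 Treg libraries, which share 8 group means, Bcl2 and Mcl1 stood against the effectors, Bcl2l11 and Bid in their log2 CPM. Bcl2 correlated with Mcl1 (Pearson's r = 0.72) and inversely with Bak1 (-0.83), Bcl2l11 (-0.75), Bid (-0.74) and Bax (-0.68), and Bak1 with Bax (0.80). Bcl2l1 stood outside, with r between -0.06 and 0.22 to every other member. The genes most like each member over the same libraries, among those of a mean of at least 5 CPM, were D3Ertd254e for Bcl2 (r = 0.95), Slc2a3 for Bcl2l11 (0.96), 2510039O18Rik for Bak1 (0.98), Naxe for Bax (0.92), Dnase2a for Bid (0.93), Gem for Pmaip1 (0.91), Pip4k2a for Mcl1 (0.82) and Cish, an IL-2 target that restrains STAT signalling, for Bcl2l1 (0.82). These are descriptions over libraries that share treatments.

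Downstream and upstream of the family, 4 lists of further genes were counted in Tregs against PBS. The shares of all genes that passed were 52.2%, 64.2% and 63.6% with isotype for WT IL-2, H16R and the 3x mutein and 35.6%, 66.5% and 73.0% with MHC II block, and the counts of each list are to be read against these. Among 13 apoptosome and caspase genes, 7, 8 and 8 were higher and 3, 4 and 2 lower with isotype for WT IL-2, H16R and the 3x mutein, and 5, 8 and 9 were higher and 0, 3 and 3 lower with MHC II block. The list medians were 0.15, 0.27 and 0.30 with isotype and 0.12, 0.19 and 0.26 with the block, where the medians over all genes lay between -0.04 and 0.02. Apaf1, the scaffold of the apoptosome, was higher in all 6 comparisons, by 0.37 to 0.89. Birc5, which encodes survivin and is expressed by dividing cells, was higher in all 6, from 0.45 ± 0.17 for WT IL-2 with the block (0.0434) to 2.13 ± 0.17 for the 3x mutein with the block (9.16e-12). The first of these was lost without MHC II block WT IL-2 replicate 1, the library with B cell and myeloid transcripts.

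Of 14 other Bcl2 family genes, 12 were tested, and 4, 2 and 2 were higher and 0, 5 and 4 lower with isotype, while 4, 3 and 2 were higher and 0, 0 and 1 lower with MHC II block. With 1 library left out, the totals of 3 for H16R and the 3x mutein with the block ranged from 3 to 5. The list medians were 0.05, -0.07 and -0.10 with isotype and 0.21, 0.13 and -0.07 with the block. Bcl2a1d and Bcl2a1b encode the pro-survival protein A1 and are near-identical copies, so reads may be split between them. Bcl2a1b was higher after WT IL-2 with isotype (0.53 ± 0.09, adjusted p = 3.29e-05) and after H16R with the block (0.255 ± 0.09, 0.0187). Bcl2a1d was lower with isotype after H16R (-0.47 ± 0.11, 0.00071) and the 3x mutein (-0.75 ± 0.11, 1.93e-06), and higher after WT IL-2 (0.27 ± 0.11, 0.0466, lost in 2 of 14 other settings and without any of 3 of the 8 libraries). Bmf, a BH3-only gene, was lower after H16R with isotype (log2 difference -0.67), a call lost in 3 of 14 other settings and without any of 4 of the 8 libraries. Among 9 death receptor genes, 4, 4 and 4 were higher and 3, 2 and 1 lower with isotype, and 1, 3 and 4 higher and 2, 1 and 3 lower with the block. With 1 library left out, the total for WT IL-2 was 4 to 8 with isotype (4 without PBS replicate 4) and 1 to 3 with the block (1 without PBS replicate 2). The list medians lay between -0.04 and 0.12. The adaptor Tradd was higher after each molecule with isotype (0.45 to 0.58) and after both muteins with the block (0.54 and 0.65). Fadd, the adaptor that recruits caspase-8, was higher in the same 5 comparisons by 0.29 to 0.43, and the 3 calls with isotype were lost without the 3 Treg libraries that stood apart, where the differences were 0.161, 0.182 and 0.165 (0.251, 0.165 and 0.209). Those of WT IL-2 and the 3x mutein were also lost without isotype PBS replicate 4 alone (0.168 and 0.169). Tnfrsf10b, a TRAIL receptor, was lower after H16R with isotype (-0.25, lost in 1 of 14 other settings and without either of 2 of the 8 libraries) and after all 3 molecules with the block (-0.24, -0.33 and -0.35), that of WT IL-2 under the block lost in 3 of 14 other settings and without any of 6 of the 8 libraries.

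Of 10 regulators 9 were tested, and 4, 3 and 4 were higher and 3, 1 and 2 lower with isotype, against 1, 1 and 1 higher and 3, 3 and 5 lower with MHC II block. The total of 7 for WT IL-2 with isotype was 3 to 6 with 1 library left out (at most 4 without PBS replicate 1 or 2 or WT IL-2 replicate 1 or 3b), 4 on total counts, 3 by limma and 1 in a fit of only the 2 groups. The list medians were 0.02, 0.03 and 0.04 with isotype and -0.08, -0.05 and -0.14 with the block. Trp53, which encodes p53, was lower in all 6 comparisons (log2 differences of -0.15 to -0.39). Foxo1, whose product Akt holds in the cytoplasm and which binds the FOXO motif, was higher with isotype after H16R (0.30 ± 0.05, adjusted p = 2.32e-05) and the 3x mutein (0.25 ± 0.05, 0.000203), and after WT IL-2 by 0.13 ± 0.05 (0.0499), a call lost in 6 of 14 other settings and without any of 3 of the 8 libraries. With the block its adjusted p was 0.204 to 0.283. Huwe1, a ubiquitin ligase of Mcl-1, was lower under the block after H16R (-0.53 ± 0.11, 0.000245) and the 3x mutein (-0.48 ± 0.11, 0.000493), and after WT IL-2 with isotype (-0.26 ± 0.11, 0.0613, lost in 2 of 14 other settings and without any of 3 of the 8 libraries). Hrk and Ddit3, like Bbc3, had an empty cell in all libraries.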

How the data were processed

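RNA was sequenced from 32 Treg and 16 Tcon libraries (paired, stranded mRNA libraries). Per the labels and the study's methods, the authors aligned reads to mouse build B38 with OSA and quantified genes with the Omicsoft form of RSEM. They deposited expected counts and FPKM values per gene, and an empty cell means no value. The genes of the matrix (53345) were named with GENCODE vM21, and 51519 matched. Expected counts were rounded to whole numbers. CPM are counts-per-million after TMM scaling over all 48 libraries, and FPKM are the authors' values, scaled by gene length and library.

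Protein-coding genes above 0.5 CPM in at least 4 libraries were tested with edgeR 4.0.16 (quasi-likelihood, R 4.3.3), over the 32 Treg libraries with 8 group terms, over the 16 Tcon libraries with antibody and treatment as additive terms, and over the Tregs and Tcons of 16 mice with the mouse as a block. P-values were adjusted over all genes tested, with a threshold of 0.1 as in the study. Groups came from the labels. Intervals are 95% intervals of the fit. The spread of a gene was estimated over all groups of a fit together, and p-values set a difference against that spread. In the fit with the mouse as a block, it is the spread left within mice.

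DESeq2 1.42.0, limma 3.58.1 on log2(FPKM + 1), other scalings and filters, thinning to the smallest library, a replicate block and leaving out libraries were the alternatives, and leaving out the libraries that stood apart was chosen after seeing the data. On simulated counts for WT IL-2 against PBS with isotype (12392 genes), 93.5% of genes changed by 1 on the log2 scale and 33.3% of those changed by 0.5 were recovered. Few genes were changed there, and all had the same spread. In the data 52.2% of genes passed in this comparison, so these recovered shares need not hold for it. The members and lists were chosen with earlier results of these data known. From each list, the 3 genes with the widest range of group means over the Treg groups above a mean of 5 CPM are named, apart from 1 gene that is not reported here, and for each member the gene of the highest correlation. The 2 libraries with the same mouse code were counted as 2 samples, with either left out as an alternative. No replicate pair agreed within counting noise (lowest chi-square per gene 3.8), which alone does not show separate mice, and the study's methods describe 1 sample per mouse.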

Additional observations from a re-analysis of the deposited data

Results flagged for a closer look

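Some libraries lay far from the others of their group. Of 64 groups of a member tested for this, 3 held such a library, and chance gives about 1 in 20. Bcl2 measured 131.5 CPM in isotype H16R Tregs replicate 4, against 113.3 to 114.6 CPM in the other 3 libraries. Bid measured 36.6 CPM in MHC II block PBS Tregs replicate 3, against 32.5 to 33.0 CPM. Bak1 measured 61.9 CPM in MHC II block WT IL-2 Tregs replicate 2, against 57.2 to 58.0 CPM.

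Responses that differed between antibody arms or cell types, by a test of the difference itself, were the other kind of result. For WT IL-2 the log2 response with MHC II block minus that with isotype was 0.41 for Bcl2 (95% interval 0.144 to 0.675), -0.307 for Bcl2l11 (-0.461 to -0.152) and 0.212 for Mcl1 (0.103 to 0.322). For H16R it was 0.434 for Bcl2l1 (0.247 to 0.62). For the 3x mutein it was -0.534 for Bcl2 (-0.8 to -0.268), 0.453 for Bak1 (0.164 to 0.742), -0.315 for Bcl2l11 (-0.47 to -0.161) and 0.199 for Bcl2l1 (0.014 to 0.383).

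The difference between H16R and WT IL-2 changed with the block by -0.536 for Bcl2 (-0.803 to -0.269), 0.507 for Bak1 (0.222 to 0.792) and 0.36 for Bcl2l1 (0.176 to 0.544). That between the 3x mutein and WT IL-2 changed by -0.943 for Bcl2 (-1.209 to -0.677), 0.688 for Bak1 (0.404 to 0.972) and -0.132 for Mcl1 (-0.242 to -0.023), whose sign turned by limma on FPKM (0.075). Bcl2 thus carried the widest such change of the 8 members, and in the isotype arm its libraries with the 3x mutein lay above those of WT IL-2 while under the block they lay below. With molecules and arms pooled, the gap between Tregs and Tcons changed with treatment by -0.577 for Bcl2 (-1.028 to -0.125), 0.31 for Bcl2l11 (0.16 to 0.461) and 0.313 for Bid (0.095 to 0.531). The Bcl2 log2 ratio was 0.19 to 0.42 in PBS mice, -0.01 to 0.3 with WT IL-2 and -1.29 to -0.14 with the muteins. Under the block the Bid ratios of treated mice (0.13 to 0.44) overlapped those of PBS mice (0.25 and 0.27).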

How the results depend on the processing

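Against PBS in Tregs, the calls of Bcl2, Bcl2l11 and Bid in all 6 comparisons and of Bak1 in 5 held in each of 14 other settings and with each library left out. Over all named results, 2431 log2 differences kept direction and side of the threshold in the other settings, 134 lost the call, 15 gained it and 19 changed sign. With 1 library left out, 1741 kept both, 125 lost the call, 4 gained it and 2 changed sign. The cause of the changes below was not tested.

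The signs that turned were of small differences. Bcl2l1 for WT IL-2 against PBS with isotype was -0.006, -0.007 and -0.006 by limma on FPKM (pseudocount 1, 0.1 and 1 with no filter) and -0.018 to 0.096 with 1 library left out, turning without WT IL-2 replicate 3b. With the block, Mcl1 was -0.042 to 0.01 for WT IL-2 with 1 library left out, turning without WT IL-2 replicate 4, and 0.004 for the 3x mutein with all biotypes. By limma on FPKM in its 3 forms, Mcl1 was -0.045 for the 3x mutein against WT IL-2 with isotype, 0.075 for the change of that difference with the block, -0.017 for Tregs against Tcons in all mice and -0.051 in treated mice, and Bcl2l11 for Tregs against Tcons was -0.024, -0.026 and -0.024.

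Counts of called members moved by over 1.5 times as follows. The 3x mutein against WT IL-2 with isotype gave 5, but 3 on total counts and by limma and 2 after thinning, and 2 to 5 with 1 library left out. The 3x mutein against H16R under the block gave 1, but 2 by DESeq2, RLE, total counts, all biotypes, limma, only the 2 groups and without both libraries with B cell transcripts, 3 without all 3 that stood apart, and 1 to 3 with 1 library left out. The interaction of WT IL-2 gave 5 without both libraries, that of H16R 2 without all 3 and 1 to 4 with 1 library left out, and that of the 3x mutein against WT IL-2 5 with all biotypes. In Tcons, H16R gave 2 to 5 with 1 library left out, and the 3x mutein gave 1 with RLE, limma without a filter and the replicate block, and 1 to 2 with 1 library left out. Leaving out the libraries that stood apart was chosen after seeing the data.

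Same-numbered Treg libraries did not deviate together (98 pairs, r from -0.48 to 0.66, median 0.02), and 9 of 32 correlated best with their own number. The replicate block left 1 call for the 3x mutein in Tcons.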
